A study of Bombyx mori with 12 samples.

Results

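The adipokinetic hormones (AKHs) of the silkworm Bombyx mori and their receptor were followed across tissues on a custom Agilent oligonucleotide array. Members were the probes whose sequence name in the scanner files, after removal of a _cds suffix, read AKH-1, AKH-2, AKH-3 or AKHR. This gave 4 genes, read by 10 of 42564 distinct non-control probes, with 2 probes each for AKH-1, AKH-2 and AKH-3 and 4 probes for AKHR. All 10 had a value on all 12 arrays. No member spot was saturated or marked as an outlier. RefSeq lists all 4 genes, under the symbols AKH1, AKH2, AKH3 and Akhr, and gives ACP as a synonym of AKH3. In that annotation AKH1 and AKH2 are neighbours on 1 chromosome with 0 genes between them, and AKH3 and Akhr lie elsewhere.

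AKHs are short amidated peptides of the insect corpora cardiaca, made by intrinsic gland cells and released into the blood. They act through AKHR, a G protein-coupled receptor best known from the fat body, the organ that stores lipid and glycogen and carries out much of the intermediary metabolism of an insect. Receptor activation raises cyclic AMP and calcium in fat body cells and mobilises these stores as diacylglycerol or trehalose. AKH, corazonin and the AKH/corazonin-related peptide, abbreviated ACP, form a family of related peptides with related receptors.

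The arrays compared the complex of corpora cardiaca and corpora allata (CC-CA), the paired gland behind the brain that releases AKH and makes juvenile hormone, with other larval tissues. Larvae were of the commercial hybrid strain Kinsyu x Showa, reared at 25 °C on mulberry leaves, and the labels name no mutation or treatment in any group. For CC-CA there were 2 arrays from 4th instar larvae on day 2, made from batches that the design text calls independent, and 1 from 5th instar larvae on day 4. Single arrays covered 4th instar larvae on day 2 for brain, prothoracic gland, midgut, fat body, salivary gland, Malpighian tubule and epidermis. Ovary and testis, also with 1 array each, were taken 3 days into wandering, on day 10 of the last (5th) instar. Each hybridisation used Cy3-labelled RNA amplified from 200 ng of total RNA. The labels do not say how many animals a sample pooled. In the fit of 11 groups, p-values measure only the spread between the 2 replicate arrays (4th instar CC-CA), moderated over all probes. The fits that split all 12 arrays into 2 groups rest mainly on the spread between tissues.

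Levels below are log2 of the processed spot intensity minus the 75th percentile of the same array, so that 0 is the level of a moderately bright probe. Arrays differed in brightness. The percentile was lowest in fat body, at an intensity of 1402, and highest in ovary, at 5827, while 60.4% (fat body) to 78.6% (testis) of spots counted as well above background. The lowest signal marked well above background lay between -7.50 (testis) and -5.02 (fat body) on this scale, so that a weak transcript was harder to detect in fat body than in testis. Levels of different probes were not set against each other. The 12 arrays limit the precision, and in whole tissues fewer cells of a type and less RNA per cell cannot be told apart.

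The label of the CC-CA arrays was checked against BmJHAMT, the juvenile hormone acid methyltransferase of the corpora allata. It was well above background only on the 3 CC-CA arrays. Of 5 neuropeptide genes used as brain markers, 5 were well above background on the brain array, 3 on each 4th instar CC-CA array and 4 on the 5th instar CC-CA array. Their summed linear level, relative to the 75th percentile, was 31.3 in brain, 0.301 and 0.317 in the 4th instar CC-CA and 0.770 in the 5th instar CC-CA. It was 0.114 in ovary, where 4 of the 5 were well above background, and 0.0136 to 0.0467 in the other tissues, where at most 1 was. These markers were known from earlier results of the same arrays and are no independent check of the labels. The fat body label was set against BmorCPG18, a cuticular protein gene that stood at 3.31 there, above every other array. Its next highest array was epidermis, at -1.59. It was the only fat body marker of the list that was matched by name. JHEH4, used as a gut marker, was highest in midgut (3.87) and DHR, used for Malpighian tubule, was highest there (4.66). Several of the markers had been named in earlier results of these arrays, so BmorCPG18, JHEH4 and DHR are no independent check either.

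The 2 well-detected hormones, AKH-1 and AKH-2, were high in CC-CA, and on their brightest probes they were 351-fold or more below that level in each other tissue where they were well above background. The receptor was highest in a different tissue. AKHR was well above background on all 4 probes in fat body and on no probe in CC-CA. Its brightest probe was also weakly above background in brain, epidermis, testis and ovary, where the brightest AKH-1 probe was detected too. The lowest signal marked well above background was -7.50 in testis and -7.35 in ovary, against -6.14 in epidermis and -5.91 in brain. Detection in these tissues therefore did not rest on equal limits, and the share of all probes detected in all of them was not counted. AKH-3 was not detected on any array. Between the 4th and the 5th instar CC-CA neither AKH-1 nor AKH-2 passed the test, and AKH-3 and AKHR could not be tested.

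**Figure D1:**
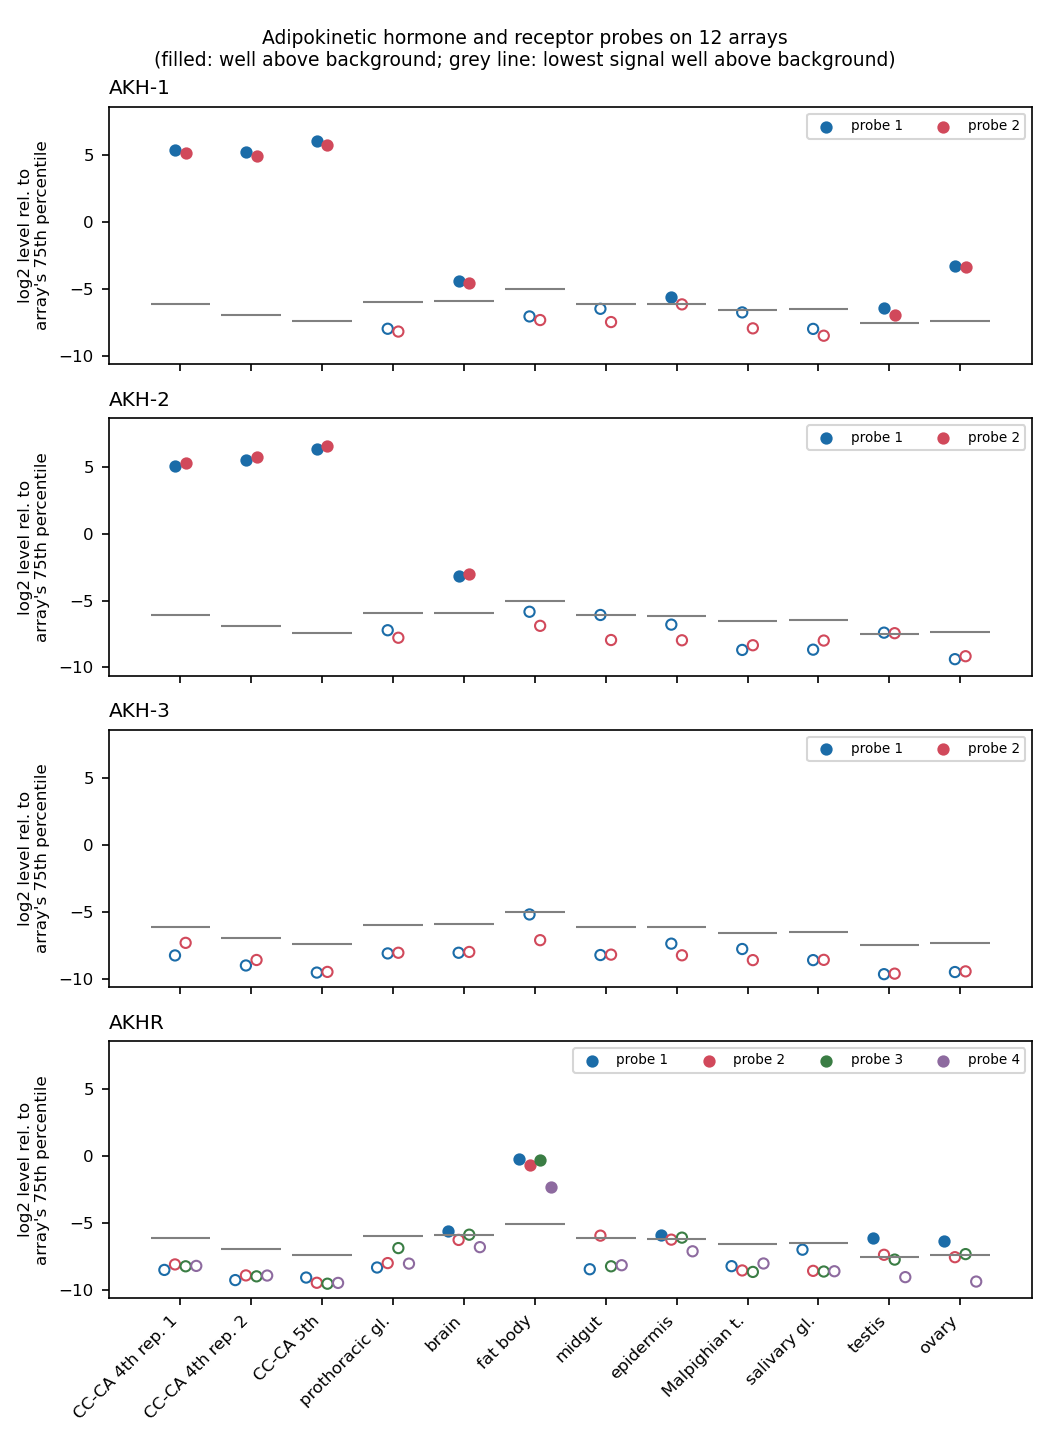
Level of each member probe (log2 relative to the 75th percentile of the array, vertical axis) on each of 12 arrays (horizontal axis), with filled points for signals well above background, open points for others and a grey line at the lowest signal well above background on that array. Probe 1 is the brightest probe of its gene. AKH-1 and AKH-2 lie at 4.96 or above on the 3 CC-CA arrays and at -2.99 or below on all others, AKH-3 points are all open, and the 4 AKHR probes are jointly filled only in fat body.

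AKH-1 was read by 2 probes. The brighter probe stood at 5.38 and 5.22 on the 4th instar CC-CA arrays (5.30 ± 0.11, SD, n = 2) and at 6.04 on the 5th instar CC-CA array. The intensities of the 4th instar pair were 183820 and 170752. Among the other tissues the brighter probe was at -3.29 in ovary, -4.42 in brain, -5.58 in epidermis and -6.40 in testis, where it was well above background. It was at -6.47 in midgut, -6.74 in Malpighian tubule, -7.04 in fat body, -7.96 in prothoracic gland and -7.97 in salivary gland, where it was not. Testis and midgut differed little in level, but the lowest signal well above background was -7.50 in testis and -6.10 in midgut. On this probe the lowest of the 3 CC-CA levels was thus 5.22, and the highest of the other 9 was -3.29. The share of all probes with such a separation was not counted. The second probe gave 5.19 and 4.96 in the 4th instar CC-CA and 5.76 in the 5th instar CC-CA, and reached -3.38 in ovary, -4.51 in brain and -6.97 in testis. It was not well above background in epidermis, at -6.14, so that the epidermis signal rests on 1 of 2 probes.

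In the fit across all probes, AKH-1 was higher in 4th instar CC-CA than in 9 of 9 tissues. A call needed a log2 difference of at least 1 together with an adjusted p under 0.05 (limma, Benjamini-Hochberg). Of the 38086 probes tested, the share called higher in CC-CA was 8.38% against epidermis, 10.9% against ovary, 12.1% against brain, 13.1% against fat body, 13.7% against prothoracic gland, 15.7% against midgut, 16.3% against Malpighian tubule, 16.6% against salivary gland and 19.1% against testis. It was 1.56% against all 9 at once. The difference was smallest against ovary, at 8.58 ± 0.48 (SE), or 384-fold, and 350-fold on the second probe. AKH-1 in CC-CA exceeded brain 844-fold, epidermis 1882-fold and testis 3316-fold. Where a tissue was not well above background only a lower bound can be given, which sets the CC-CA mean against the probe's own signal or, where higher, against the dimmest signal that passed the background test on that array. On the brighter probe these bounds ran from at least 1277-fold over fat body to at least 3715-fold over Malpighian tubule. The largest adjusted p of limma over the 9 tissues was 6.5e-06 on the brighter probe and 7.12e-06 on the other.

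Below CC-CA, the order of AKH-1 was ovary, brain, epidermis and testis, and no pair of neighbours in that order passed the test. Ovary minus brain was 1.14 ± 0.56 (SE, limma adjusted p = 0.236). Brain minus epidermis was 1.16 ± 0.56 (limma adjusted p = 0.189), and epidermis minus testis 0.82 ± 0.56 (limma adjusted p = 0.28). These neighbours were paired after the order had been seen. Both AKH-1 probes were well above background in ovary although both AKH-2 probes, at -9.38 and -9.16, were not. On the ovary array 4 of 5 brain markers were also well above background, and the corpora allata marker BmJHAMT was not, at -9.39. The part of other tissue in the ovary signal was not tested.

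AKH-2 was high in the same 3 arrays and was detected in fewer tissues outside the gland. Its brighter probe over the 12 arrays stood at 5.06 and 5.53 in the 4th instar CC-CA (5.30 ± 0.33, SD, n = 2) and at 6.34 in the 5th instar CC-CA. Brain followed at -3.16 and was the only other tissue well above background. The remaining 8 tissues ran from -9.38 in ovary to -5.84 in fat body, and none of them was well above background. The second probe read 5.28, 5.72 and 6.57 in CC-CA and -2.99 in brain, and it too was well above background nowhere else.

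AKH-2 was also called higher in 4th instar CC-CA than in 9 of 9 tissues on both probes, with a largest adjusted p of 1.15e-05 (limma). Against brain the difference was 8.46 ± 0.50 (SE), or 351-fold. In the 8 other tissues the bounds ran from at least 1278-fold over fat body to at least 6643-fold over testis, and stood at 6439-fold over ovary. Brain exceeded the next highest signal, that of fat body, by 2.68 ± 0.58 (SE, limma adjusted p = 0.0102). This pair, too, was set side by side after the order had been seen. Because fat body was not well above background, only a bound of at least 3.64-fold can be given, and the p does not apply to that bound. Both hormones were thus detected on the brain array on both of their probes. The part of CC-CA tissue in the brain signal was not tested.

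**Figure D2:**
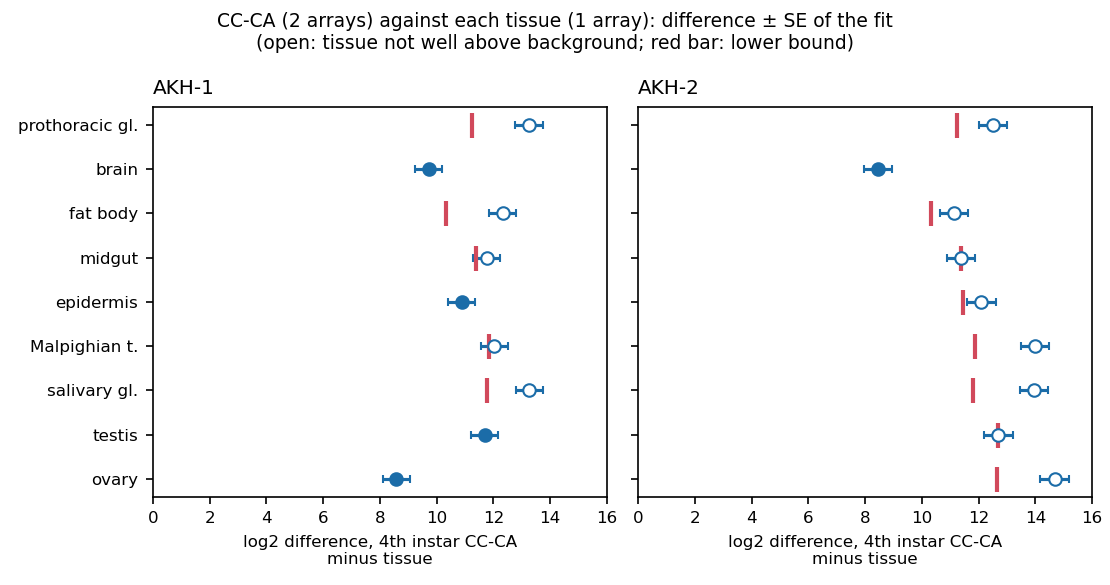
Difference in log2 level between the 4th instar CC-CA (2 arrays) and each of 9 tissues (1 array each) for the brightest AKH-1 and AKH-2 probes, with bars for the SE of the limma fit. Filled points are tissues well above background, open points are not, and red marks give the lower bound for the latter. The smallest differences are 8.58 (AKH-1, ovary) and 8.46 (AKH-2, brain).

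The arrays were assigned to 3 slides of 4 from the barcodes in the file headers. Arrays that shared the leading part of the barcode were taken as 1 slide. On slide 1, CC-CA replicate 1 exceeded brain by 9.80 for AKH-1 and 8.22 for AKH-2 (log2, with 1 array on each side). The other arrays on the slides of CC-CA were not well above background for either hormone and give bounds only. On slide 1 the difference was at least 11.33 for AKH-1 and 11.02 for AKH-2 over prothoracic gland, and at least 10.40 and 10.09 over fat body. On slide 2, CC-CA replicate 2 exceeded midgut by at least 11.32 for AKH-1 and 11.62 for AKH-2, and salivary gland by at least 11.71 and 12.03. No CC-CA array lay on slide 3, which carried ovary, testis, epidermis and Malpighian tubule, so for those 4 tissues slide and tissue cannot be told apart. This includes the AKH-1 signal of the ovary.

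A second fit compared the CC-CA arrays of both stages, 3 in all, with the 9 arrays of other tissues, so that its error held the spread between tissues. AKH-1 averaged 5.55 ± 0.44 (SD, n = 3) in CC-CA and -6.21 ± 1.56 (SD, n = 9) elsewhere, a difference of 11.75 ± 0.88 (SE, limma adjusted p = 1.09e-05). AKH-2 averaged 5.65 ± 0.65 (SD, n = 3) and -7.03 ± 1.89 (SD, n = 9), a difference of 12.67 ± 1.06 (SE, limma adjusted p = 2.51e-05). Most of the 9 arrays were not well above background, so these sizes depend on how dim signals are treated, and normexp background correction gave 10.03 and 10.46. In that fit 1.51% of probes were called higher in CC-CA. It counts 3 arrays of 1 tissue as independent, which overstates the certainty about tissues.

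AKH-3 was not well above background on any of the 12 arrays, on either of its 2 probes. Its signals ran from -9.65 to -5.19. In CC-CA the 2 probes stood at -8.25 and -7.31 on replicate 1, at -9.0 and -8.59 on replicate 2, and at -9.53 and -9.48 in the 5th instar. The highest signal, -5.19 on 1 probe in fat body, was below the lowest signal marked well above background on that array, and the other probe read -7.11 there. Neither probe passed the filter on dim probes, so AKH-3 was not tested in any comparison. Its transcript was not detectable in these tissues and stages with these probes.

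AKHR, the receptor, was read by 4 probes, 2 of them carrying the _cds suffix. In fat body they stood at -0.23, -0.62, -0.28 and -2.27, all well above background, and the intensity of the brightest was 1196. The probe that was brightest over all arrays was weakly above background in 4 more tissues, at -5.58 in brain, -5.90 in epidermis, -6.08 in testis and -6.35 in ovary. It was not well above it in salivary gland (-6.97), Malpighian tubule (-8.20), prothoracic gland (-8.30) or midgut (-8.43). In the gland that releases the hormones it read -8.48 and -9.24 in the 4th instar (-8.86 ± 0.54, SD, n = 2) and -9.05 in the 5th, none of them well above background. The other 3 probes were well above background in fat body alone. The weak signals in brain, epidermis, testis and ovary thus rest on 1 of 4 probes.

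On its brightest probe AKHR was called higher in fat body than in 10 of 10 other groups. Over all probes tested, the share called higher in fat body was 10.5% against epidermis, 11.1% against prothoracic gland, 12.2% against midgut, 12.8% against Malpighian tubule, 13.6% against brain, 14.1% against 4th instar CC-CA, 16% against salivary gland, 21.4% against ovary, 22.5% against 5th instar CC-CA and 25.7% against testis. It was 3.09% against all 10 at once. On the brightest probe the smallest difference, against brain, was 5.35 ± 0.61 (SE), or 40.8-fold. Fat body exceeded epidermis 51.1-fold, testis 57.8-fold and ovary 69.6-fold. Bounds ran from at least 53.0-fold over prothoracic gland to at least 144-fold over 5th instar CC-CA, and the bound over the 4th instar CC-CA was 78.2-fold. The largest adjusted p of limma over the 10 groups was 0.000336, which assumes that the single fat body array would vary like the CC-CA pair. The 3 other probes passed the filter on dim probes only through fat body, so their calls add no support. As a description, their smallest bounds, all against brain, were at least 39.3-fold, 47.6-fold and 12.5-fold.

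**Figure D3:**
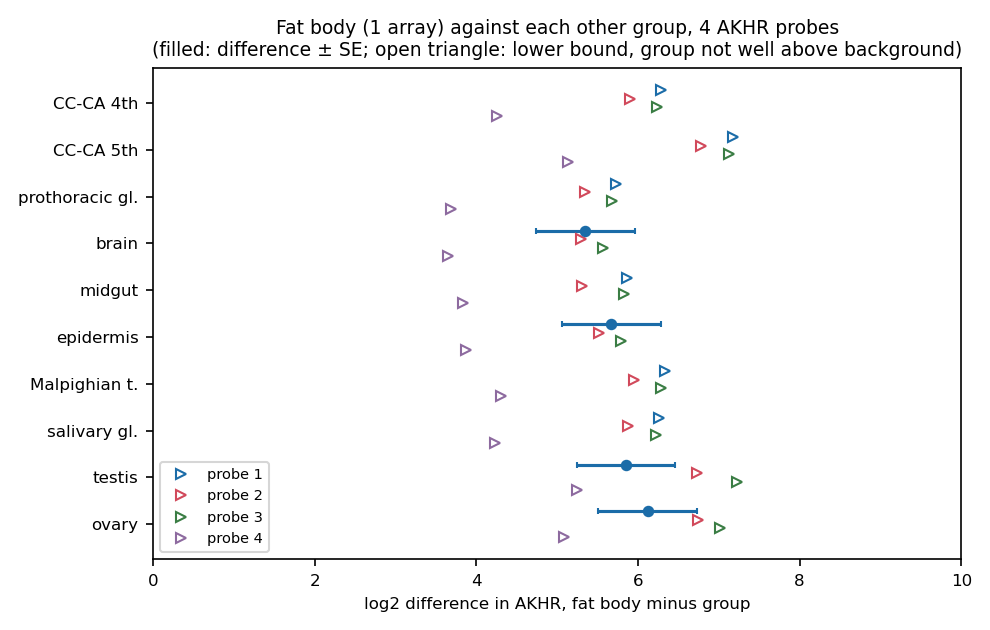
Difference in log2 AKHR level between fat body (1 array) and each other group, for the 4 AKHR probes. Filled points with bars for the SE of the limma fit mark groups well above background, on probe 1 only, and open triangles give the lower bound for groups that were not. The measured differences are 5.35 to 6.12, and the bounds run from 3.65 to 7.23.

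Among the 4 tissues where 1 AKHR probe was weakly detected, the order was not resolved. Brain minus epidermis was 0.33 ± 0.61, epidermis minus testis 0.18 ± 0.61 and testis minus ovary 0.27 ± 0.61 (SE, limma adjusted p = 0.811, 0.842 and 0.818). On this probe 4th instar CC-CA minus brain was -3.28 ± 0.53 (SE, limma adjusted p = 0.0022). As CC-CA was not well above background, only an untested bound holds for brain over CC-CA, at least 1.92-fold. On slide 1, which held both, fat body exceeded brain by 5.35, prothoracic gland by at least 5.73 and CC-CA replicate 1 by at least 5.88 (log2, 1 array each).

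The fit of the fat body array against all 11 others measured AKHR against the spread between tissues. It counted the 3 CC-CA arrays of 1 tissue as independent, and on the brightest probe most of the 11 arrays were not well above background. The difference was 7.28 ± 1.33 (SE, limma adjusted p = 0.0286), and 0.717% of probes were called higher in fat body. With slide as a block the difference was 7.22 and its adjusted p of limma was 0.051, which does not pass the threshold. The 3 probes that passed the filter only through fat body gave 7.08, 7.53 and 6.05 without the block and 6.81, 6.69 and 5.39 with it, which is no further support. The size on the brightest probe depends on how dim signals are treated. Without the block it was 5.15 with normexp background correction and 6.09 with a floor under dim signals.

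BmorCPG18, the cuticular protein gene highest in fat body and next highest in epidermis, was at -8.30 on CC-CA replicate 1 and at -3.65 on replicate 2, a gap far wider than that of any member between the 2 arrays. AKHR on the same arrays was at -8.48 and -9.24 on its brightest probe, and none of its 4 probes was well above background there. BmorCPG18 was also well above background in epidermis (-1.59), testis (-3.72), ovary (-4.29) and brain (-5.0), the 4 tissues where 1 AKHR probe was weakly detected. It was so as well in midgut (-5.63), Malpighian tubule (-5.94) and 5th instar CC-CA (-7.02), where no AKHR probe was. Whether those signals came from fat body RNA or from the tissues themselves was not tested.

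The stage comparison asked whether hormone transcripts differed between day 2 of the 4th instar, when the corpora allata make juvenile hormone, and day 4 of the 5th instar. AKH-1 was at 5.38 and 5.22 in the 4th instar and 6.04 in the 5th, a difference (4th minus 5th) of -0.75 ± 0.48 (SE, limma adjusted p = 0.438). The 95% interval ran from -1.85 to 0.36. AKH-2 was at 5.06 and 5.53 in the 4th instar and 6.34 in the 5th, a difference of -1.04 ± 0.50 (SE, limma adjusted p = 0.297), with a 95% interval from -2.19 to 0.10. The second probes gave -0.69 and -1.07 (limma adjusted p = 0.485 and 0.286). Neither hormone was called, where 4.49% of 32105 probes were called higher in the 4th instar and 1.25% lower. On all 4 hormone probes the single 5th instar array lay above both 4th instar arrays, as it did on 40.3% of all probes tested, which is no result about the hormones. In the same arrays BmJHAMT went from 2.24 ± 0.21 (SD, n = 2) to -1.55 and was called higher in the 4th instar, by 3.79 ± 0.49 (SE, limma adjusted p = 0.00339). AKH-3 and AKHR were not well above background at either stage and were not tested.

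**Figure D4:**
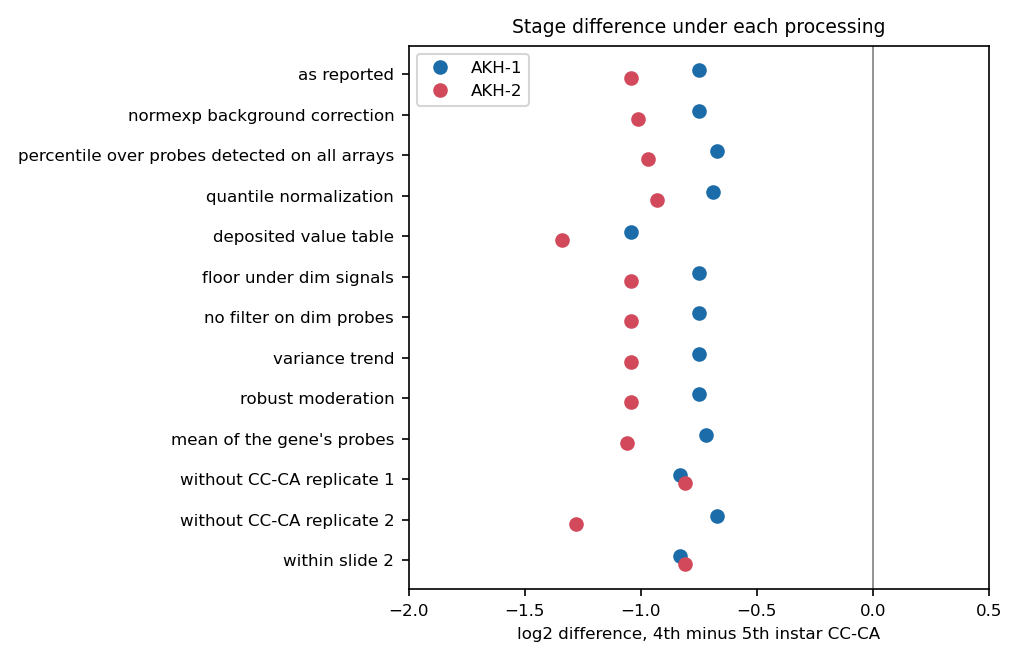
Difference in log2 level between 4th and 5th instar CC-CA (4th minus 5th) for AKH-1 and AKH-2 under each way of processing. All values are negative, from -1.04 to -0.67 for AKH-1 and from -1.34 to -0.81 for AKH-2, and none passed the test where one could be made.

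Other genes of the AKH peptide family were measured on 4 sequence names. Corazonin, the related neuropeptide of brain neurons that send their axons to the corpora cardiaca, was highest in brain at 3.20. It was at -2.08 and -2.03 in the 4th instar CC-CA, -1.19 in the 5th instar CC-CA and -6.11 in ovary, all well above background. BNGR-A21, the corazonin receptor, was not well above background on any array, and its 12 levels ran from -9.32 in testis to -6.29 in brain. BNGR-A28, a further neuropeptide receptor of the list, was not detected either, from -9.33 to -6.16. BNGR-A29 was well above background in brain (-4.22) and testis (-5.72) and stood at -8.02 and -7.03 in the 4th instar CC-CA, -9.52 in the 5th and -6.35 in fat body. Of these 4 genes 2 were tested and 0 were above all 9 tissues in CC-CA. In fat body 0 of the 2 tested were above all 10 other groups, beside the 3.09% of all probes.

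Of 11 other neurohormone genes associated with the CC-CA, corazonin included, 10 were tested and 1 was called above all 9 tissues, beside the 1.56% of all probes. This was pburs, a subunit of the tanning hormone bursicon, at 2.44 and 2.67 in the 4th instar and 4.36 in the 5th. It was 8.85 above testis, the only other tissue where it was well above background. Of the 11 genes, 6 were highest in brain, among them corazonin, the eclosion hormone EH (3.53), myosuppressin (2.96) and allatostatin A (2.90). Corazonin, EH and allatostatin A also served as brain markers above, so this count is no result about the list. Of the 9 tested between stages 0 were called, beside 4.49% of all probes higher and 1.25% lower, so the count is no result about the list. Their median difference (4th minus 5th) was -1.67, where the median of all tested probes was 0.03. IMFamide (-1.67) and allatostatin C (-1.41) were well above background in CC-CA only in the 5th instar. Both entered the stage test through that array alone, so the median is no result about the list. The brain markers, several of which are in this list, were also higher in sum on the 5th instar array, as given above, and their part in these differences was not tested.

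**Figure D5:**
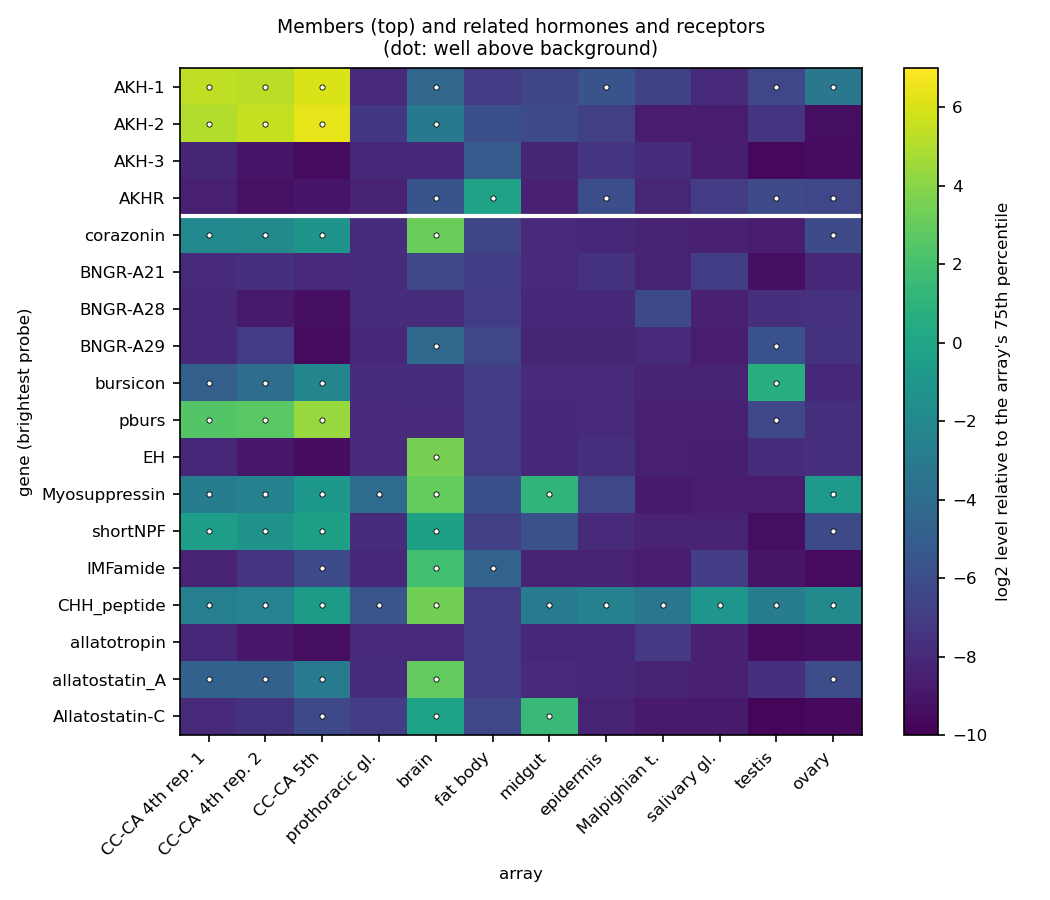
Log2 level (relative to the 75th percentile of the array, colour) of the members, above the white line, and of related hormones and receptors, below it, on 12 arrays, with a dot where the brightest probe was well above background. Colours can be compared along a row, not between rows. AKH-1, AKH-2 and pburs are brightest in the CC-CA columns, AKHR in fat body, and corazonin, EH and allatostatin A in brain.

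Genes with a level pattern like that of the members were ranked by Pearson correlation of log2 levels over the 12 arrays, among 283 named genes with a detected probe. These correlations are a description, share the same arrays and scaling, and are dominated by the 3 CC-CA arrays or by the fat body array. AKH-1 and AKH-2 correlated with each other at r = 0.943. Whether the probes of each hormone also bound RNA of the other was not tested. Nearest to AKH-1 were pburs (r = 0.966), BmJHAMT (0.917), the neuropeptide receptor BNGR-A6-A (0.867) and the cuticular protein genes BmorCPH27 (0.851) and BmorCPR22 (0.840). Nearest to AKHR were the cuticular protein genes BmorCPR143 (r = 0.883), BmorCPG18 (0.833), BmorCPT3 (0.803) and BmorCPR75 (0.754) and the receptor BNGR-B4 (0.819). All 5 had their highest array in fat body, where BmorCPR143 stood at -2.82, BmorCPT3 at -2.18, BmorCPR75 at -4.13 and BNGR-B4 at -4.84. BNGR-B4 was well above background on that array alone.

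Genes of energy storage and mobilisation, such as lipases, perilipins, lipophorins and glycogen phosphorylase, were looked for by name. None of 12 name fragments occurred among the 32372 sequence names of the array files, most of which are not gene names, so the downstream genes of AKH signalling were not analysed here.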

How the data were processed

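Spot intensity was measured on 12 arrays in 1 colour. Per the file headers, the authors scanned each array at high and low gain, combined the scans and deposited the background-subtracted intensity of Agilent Feature Extraction 9.5.3.1 (version per the submitters' processing notes), in which dim spots carry a small positive surrogate. No scaling between arrays had been applied. The deposited table of values, used as an alternative, holds the same intensity after division by a constant of each array. Its scale is linear, what the constant stands for, and so the centring, is unknown here, and its column medians ran from 4.95 (testis) to 10.1 (5th instar CC-CA).

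For the analysis, log2 of the intensity minus the 75th percentile of the array was taken, spots marked as outliers were removed, repeated spots averaged, and 224 probes without a value on every array were dropped (42340 left). Tissue fits used probes that passed the background test on all arrays of 1 group or more (38086 probes, 8 of the 10 members), and the stage test those that did so in a CC-CA group (32105 probes, 4 members). The group fit (limma 3.58.1, R 4.3.3, data.table version 1.17.8) gave each of 11 groups a mean. The CC-CA pair supplied its 1 residual degree of freedom, to which moderation added 7.39, so each single array is assumed to vary like that pair. Benjamini-Hochberg adjustment ran over all probes of a comparison. The fits were tested on simulated data, and plots were drawn with matplotlib 3.10.9.

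All member probes are named. A gene is represented by its probe with the highest mean level over the 12 arrays, and related genes come from lists of family relatives, CC-CA neurohormones, energy genes and tissue markers, and from the 5 highest correlations. The members and lists were chosen with earlier results of these data known. Alternatives were normexp background correction (offset 50), other scalings, the value table, a floor, other filters and moderations, the mean of a gene's probes, CC-CA stages merged, slide as a block and left-out replicates. The scanner files hold a median and no mean spot signal, so normexp used the median. RefSeq names are those of assembly ASM3026992v2, used for names and neighbours only. Neither probe nor transcript sequences were used here, so binding of AKH-1 probes to AKH-2 RNA, or the reverse, was not checked.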

Additional observations from a re-analysis of the deposited data

How the results depend on the processing

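Of the results for AKH-1, AKH-2 and AKHR, 1 changed its side of the threshold: the difference of AKHR between the fat body array and the 11 others was 7.22 with slide as a block (limma adjusted p = 0.051). Over its 8 alternatives this difference ran from 5.15 to 7.28, and the cause of the lost call was not tested. The smallest difference of 4th instar CC-CA ran from 8.43 to 9.17 for AKH-1 and from 8.22 to 8.84 for AKH-2, and that of fat body from 4.38 to 5.43 for AKHR, with largest adjusted p values of 0.0444, 0.0444 and 0.045 (limma, all under quantile normalization). The stage difference ran from -1.04 to -0.67 for AKH-1 (adjusted p 0.209 to 0.63) and from -1.34 to -0.81 for AKH-2 (0.111 to 0.411), and the value table moved the median stage difference of all probes from 0.03 to -0.27, against -0.12 under quantile normalization. Leaving out either CC-CA replicate gave 8.50 to 8.66 for AKH-1 and 8.22 to 8.69 for AKH-2 against the next tissue, -0.83 to -0.67 and -1.28 to -0.81 between stages, values with no test, and 11.84 to 11.92 and 12.73 to 12.96 for the remaining CC-CA arrays of both stages against the 9 others. Over all alternatives the latter ran from 10.03 to 12.42 for AKH-1 and from 10.46 to 12.96 for AKH-2, lowest with normexp.

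Counts of all probes moved more. Probes above all 9 tissues in CC-CA numbered 593, but 283 under quantile normalization and 257 with both stages as 1 group. Those above all other groups in fat body numbered 1176, but 307, 255 and, with normexp, 1616. Stage calls (1440 higher, 402 lower) were 0 and 0 under quantile normalization, 3007 and 1776 with a variance trend, 2422 and 1456 with robust moderation, 2067 and 1037 with normexp, and the value table gave 604 lower. No paired analysis was possible because the groups share only 1 replicate number. Adding slide to the fit of 11 groups left no residual degrees of freedom, so this was not run, and a filter for probes well above background on all arrays left no member.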
